A study of Mus musculus with 8 samples.

Results

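Protein-coding messenger RNAs (mRNAs) were compared over the whole path from mouse embryonic stem cells (ESC, day 0) to cardiomyocyte cultures (CM, day 10). The members are the genes that the deposited annotation calls protein coding, 21936 of the 55487 genes in the files, in 4 of the 8 libraries. All libraries came from the J1 male ESC line, which is of strain 129S4/SvJae, and 2 biological replicates were sequenced at each stage. The CM libraries are of embryoid bodies, aggregates of differentiating cells, that had been made in hanging drops, plated on gelatin after 2 days and kept in medium with fetal bovine serum and ascorbic acid until contracting patches were collected. The ESC libraries are of untreated cells kept on gelatin with KnockOut Serum Replacement and leukemia inhibitory factor (LIF). The 4 remaining libraries are of mesoderm (MES, day 4) and cardiac progenitor (CP, day 6) cultures and enter only where they are named. No group was sorted and no allele sets the groups apart. Medium, serum, LIF, ascorbic acid, growth as aggregates and time differ together between CM and ESC, and their parts cannot be told apart. RNA was depleted of ribosomal RNA and sequenced by strand, so mRNAs without a poly(A) tail, such as those of the replication-dependent histones, were counted too.

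ESCs are held in the naive state by LIF and by a network of transcription factors around Pou5f1, Sox2 and Nanog, and they divide rapidly with a short G1 phase. On the way to the heart, cells pass through mesoderm, where the pluripotency network closes, and then build a contractile apparatus of actin and myosin filaments, calcium pumps and ion channels, under factors such as Gata4, Hand2, Nkx2-5 and Tbx5. Plated embryoid bodies are mixtures, in which cardiomyocytes grow beside fibroblasts, smooth muscle, endothelium, blood and endoderm. In such bulk RNA, fewer cells of a type and less RNA per cell cannot be told apart.

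The total counts were 19728777 and 18368970 in CM and 19220169 and 18901068 in ESC. Levels are given as TPM, which scale reads per length of gene and are reported with the same sum in each library. Changes are given as log2 fold changes, CM minus ESC, with the standard error (SE), from edgeR's quasi-likelihood test on the counts. An mRNA was called higher or lower, or is said to have risen or fallen, where its adjusted p over the 20071 genes tested was under 0.05 with a fitted fold change over 2 or below 0.5. The fitted changes are scaled by TMM, which aligns the bulk of the genes, and the log2 ratio of mean TPM ran 0.44 above the fitted change (median of 13802 mRNAs, 5th to 95th percentile 0.42 to 0.48). A gene with equal TPM at both stages thus has a negative fitted change, and calls that turn on this are named. The CM replicates differed from each other more than the ESC replicates did, with a mean chi-square per gene of 33.2 in CM and 3.71 in ESC. Defining markers of ESC summed to 78.6 and 84.5 TPM in CM, against 6501 and 6454 TPM in ESC. Those of cardiomyocytes summed to 312 and 825 TPM in CM, against 22.2 and 22.7 TPM in ESC, and all 9 were called higher. These markers had a mean sum of 56.6 TPM at MES, 806 TPM at CP and 569 TPM in CM. Those of fibroblasts were far higher, at 10669 and 6532 TPM in CM, against 10.6 and 10.3 TPM in ESC. Cardiomyocyte markers were thus raised in CM, and their sum lay below that of the fibroblast markers. Most of the latter came from Col1a1 and Col3a1, with means of 6347 and 1655 TPM in CM. Sums over different genes do not measure shares of cells. The cultures labelled CM thus held markers of more than the cardiomyocyte, in proportions that were not measured. Calls of the genes named by the rule held in each of 14 alternative settings unless a change is stated, and 101 of the 457 called genes under that rule lost their call in at least 1.

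Of the 21936 mRNAs, 15271 passed the filter on low counts and were tested. The 6665 others included 3494 with no count in CM or ESC and 275 with a mean of at least 1 TPM at either stage, and the highest mean of any of them was 14 TPM. In CM 4442 of the mRNAs tested were called higher, which is 29.1%, and 3335 were called lower, which is 21.8%. Among all genes tested, coding or not, 29.8% were called higher and 21.8% lower. The other 7494 mRNAs were not called, and 4063 of these had an adjusted p under 0.05 with a fold change inside the limits. Higher calls made up 57.1% of the calls. They made up 65.2% when libraries were scaled by their totals only, and 71.4% (5467 higher, 2188 lower) when the fold was taken from mean TPM at the same adjusted p.

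Rises were larger than falls. The median log2 fold change was 2.62 among the mRNAs called higher and -1.73 among those called lower, and 0.07 over all mRNAs tested. A change of more than 4-fold was fitted for 2849 mRNAs called higher and 1325 called lower, and one of more than 16-fold for 1300 and 478. No read was counted in ESC for 320 of the mRNAs called higher, and none in CM for 104 of those called lower. From under 1 TPM in ESC, 557 mRNAs were called higher and reached at least 10 TPM in CM. In the other direction, 140 mRNAs were called lower, with under 1 TPM in CM and at least 10 TPM in ESC. At a mean of at least 1 TPM, 14087 mRNAs were present in CM and 12694 in ESC, of which 11951 were shared, 2136 were only in CM and 743 only in ESC. At the top of the range the order turned, with 69 mRNAs of at least 1000 TPM in CM and 98 in ESC.

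**Figure D1:**
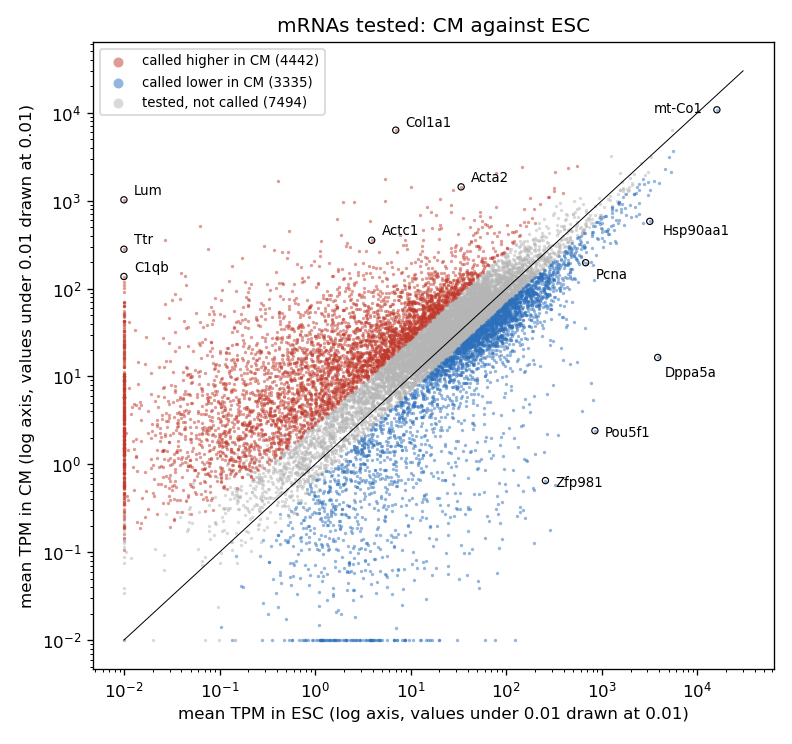
Mean TPM of each mRNA tested in CM (vertical, log axis) against ESC (horizontal, log axis), means of 2 libraries per stage, with values under 0.01 TPM drawn at 0.01. Red points (4442) were called higher in CM, blue points (3335) lower and grey points (7494) were tested and not called, and the grey band lies above the line of equal TPM because the fitted change is scaled by TMM.

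The mRNA pool of CM was spread over more genes than that of ESC. The most abundant mRNAs that together held 50% of the protein-coding TPM numbered 961 and 1201 in the CM libraries, against 628 and 657 in the ESC libraries, and the groups did not overlap. The 100 most abundant mRNAs held 20.9% and 17.9% of the pool in CM, against 25.9% and 25.1% in ESC. Between a CM and an ESC library, 32.4% to 33.7% of the pool lay with other mRNAs (the sum of the gains in share over all mRNAs, 4 pairs), against 9.37% between the CM replicates and 3.62% between the ESC replicates. Of the share lost, 260 mRNAs held 50%, and of the share gained, 601 mRNAs held 50%. The pool of ESC was thus given up by fewer genes than those that took it over.

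By construction the called mRNAs carry the shift, but not evenly. Those called lower held 21.7% and 22.5% of the pool in CM, against 50.6% and 50.4% in ESC. Those called higher held 26.5% and 24.6% in CM, against 3.65% and 3.73% in ESC. At MES the mRNAs called lower still held 36.0% and 35.0%, and at CP 26.4% and 25.1%. Those called higher stood at 12.8% and 13% at MES and at 21.3% and 22.1% at CP, so at day 6 both sums lay closer to day 10 than to day 0. The share of ESC in mRNAs called lower rests on many genes near the limit of 2-fold, and was 29.1% with the fold of mean TPM and 37.9% with library totals.

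Abundance and direction went together. The class with a mean under 1 TPM over the 4 libraries held 7772 mRNAs, of which only 1210 were tested. Of these 489 were called higher and 244 lower. Low mRNAs pass the filter through a stage where they are high, so the calls in this class partly follow from it. In the class from 1 to 10 TPM, 1859 of 4004 were called higher (46.4%) and 768 lower (19.2%). From 10 to 100 TPM the directions were nearly even, with 1890 of 8392 called higher (22.5%) and 1685 lower (20.1%). From 100 to 1000 TPM 198 of 1582 were called higher (12.5%) and 591 lower (37.4%). At 1000 TPM and above only 6 of 83 were called higher (7.23%) and 47 lower (56.6%). The median log2 fold change was 0.96, 0.87, -0.05, -0.68 and -1.05 over the 5 classes. In the most abundant class the count of falls depended on scale, from 21 with the fold of mean TPM to 56 without CM replicate 1, while its median stayed below 0, between -0.62 and -1.25.

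**Figure D2:**
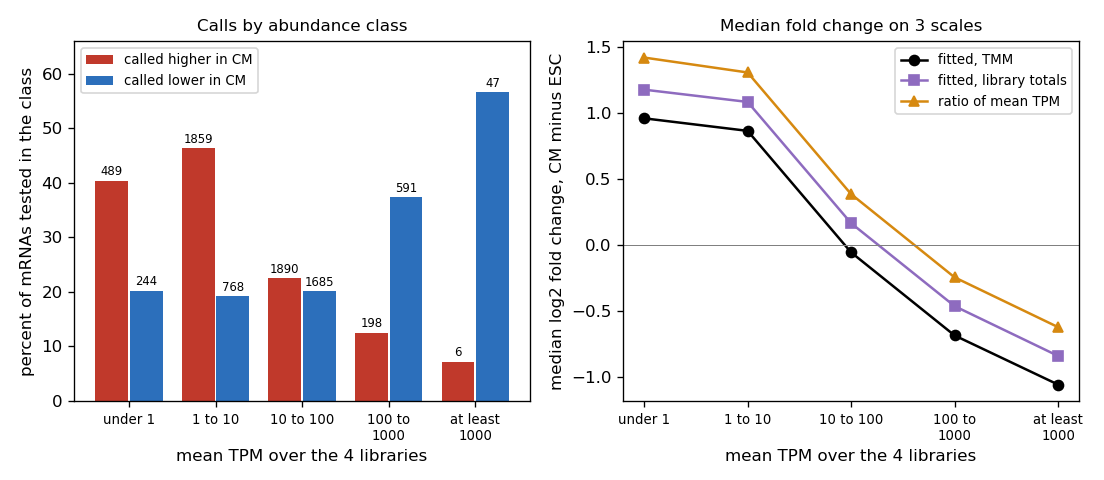
Left, percent of the mRNAs tested in 5 classes of mean TPM that were called higher (red) or lower (blue) in CM, with the number of mRNAs above each bar. Right, the median log2 fold change of the classes, CM minus ESC, on 3 scales, which fell from the least to the most abundant class on each of them.

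Of the 10 most abundant mRNAs of each stage 5 were shared, namely mt-Co1, Eef1a1, Actb, Rplp1 and Ftl1. Their fitted log2 fold changes were modest, from -1.13 for Ftl1 to -0.19 for Actb. Even so, mt-Co1, Rplp1 and Ftl1 were called lower and were among the 12 largest losses of TPM. mt-Co1, a mitochondrially encoded subunit of cytochrome c oxidase on chromosome M, was at 9894 and 11737 TPM in CM, against 16117 and 15827 TPM in ESC. Its fitted change was -1.01 ± 0.10 (SE), which passed the limit of 2-fold so narrowly that the call was lost in 6 settings. Eef1a1, a translation elongation factor, was at 11258 and 9181 TPM in CM, against 10192 and 9873 TPM in ESC, and was not called. Actb, cytoplasmic beta-actin, was at 6782 and 6063 TPM in CM, against 5100 and 5760 TPM in ESC, and was not called either. The 10 most abundant mRNAs of CM also held Col1a1 and Tmsb4x, of which Tmsb4x, an actin-binding peptide, was at 2834 and 2093 TPM in CM, against 610 and 480 TPM in ESC (1.75 ± 0.19 SE). Those of ESC held Dppa5a, histones H4c12, H3c6 and H4c2, and the chaperone Hsp90ab1.

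The 12 largest gains in TPM were led by genes of the extracellular matrix. Col1a1, the alpha-1 chain of type I collagen (ENSMUSG00000001506, chromosome 11 from 94936224 to 94953042 of GRCm38), was at 8155 and 4539 TPM in CM, against 7.13 and 6.83 TPM in ESC. Its log2 fold change was 9.42 ± 0.37 (SE), with an adjusted p of 3.4e-08 from edgeR, and its level was 413 TPM at MES and 3142 TPM at CP. Col1a2, Col3a1, Sparc, Fn1 and Serpinh1, the last a chaperone of collagen, were among the 12, with Sparc at 2871 and 1925 TPM in CM, against 144 and 148 TPM in ESC. The others included Acta2, the imprinted Peg10, and Gpc3, a heparan sulfate proteoglycan that was at 1590 and 1065 TPM in CM, against 27.4 and 28.4 TPM in ESC (5.15 ± 0.23 SE). Itm2a, a membrane protein, was at 1652 and 1204 TPM in CM, against 10.9 and 9.28 TPM in ESC.

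The 12 largest losses were led by mt-Co1. They also held Rplp1, 5 histones, both cytosolic Hsp90 chaperones (the call of Hsp90ab1 was lost with the fold of mean TPM) and the pluripotency gene Dppa5a. Dppa5a, an RNA-binding protein of pluripotent cells (ENSMUSG00000060461, chromosome 9 from 78367052 to 78368177), was at 21.2 and 11.6 TPM in CM, against 3849 and 3830 TPM in ESC. It had already dropped by day 4, to 39.9 TPM in MES, and its log2 fold change between CM and ESC was -8.28 ± 0.29 (SE, edgeR adjusted p = 1.9e-08). Hsp90aa1, the inducible cytosolic chaperone, was at 532 and 632 TPM in CM, against 3224 and 3122 TPM in ESC (-2.89 ± 0.10 SE, edgeR adjusted p = 1.5e-08). Ptma, a small acidic nuclear protein, was at 1364 and 1252 TPM in CM, against 3387 and 3008 TPM in ESC. Ferritin light chain Ftl1 was at 3060 and 3192 TPM in CM, against 4987 and 5079 TPM in ESC (-1.13 ± 0.09 SE), and its call was lost with library totals, with a test against 2-fold and with the fold of mean TPM.

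Among mRNAs whose average log2 CPM was 4 or more, the largest rises and falls were close to all or none. Lum, a small proteoglycan of collagen fibrils (ENSMUSG00000036446, chromosome 10 from 97565128 to 97572703), was at 1369 and 677 TPM in CM and had no read in ESC. Taking 3 counts as the most that both ESC libraries together could have missed, it was at least 7988-fold higher in CM. F13a1, a transglutaminase of clotting and of macrophages, was at 75.9 and 33.9 TPM in CM with no read in ESC, at least 1183-fold higher. Foxf1, a forkhead factor of lateral mesoderm, was at 56.6 and 70.4 TPM in CM with no read in ESC, at least 478-fold higher, and stood at 167 TPM at MES. In the other direction 2410141K09Rik, a gene with a clone-based name (chromosome 13 from 66418114 to 66441118), had no read in CM and was at 127 and 123 TPM in ESC, at least 1513-fold lower in CM. Dnmt3l, a cofactor of the de novo DNA methyltransferases, was at 0.203 and 0.150 TPM in CM, against 292 and 281 TPM in ESC (-11.01 ± 0.31 SE). Of the 12 largest falls, Zfp978, Zfp980, Zfp981 and Rex2 lie in one block of chromosome 4.

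**Figure D3:**
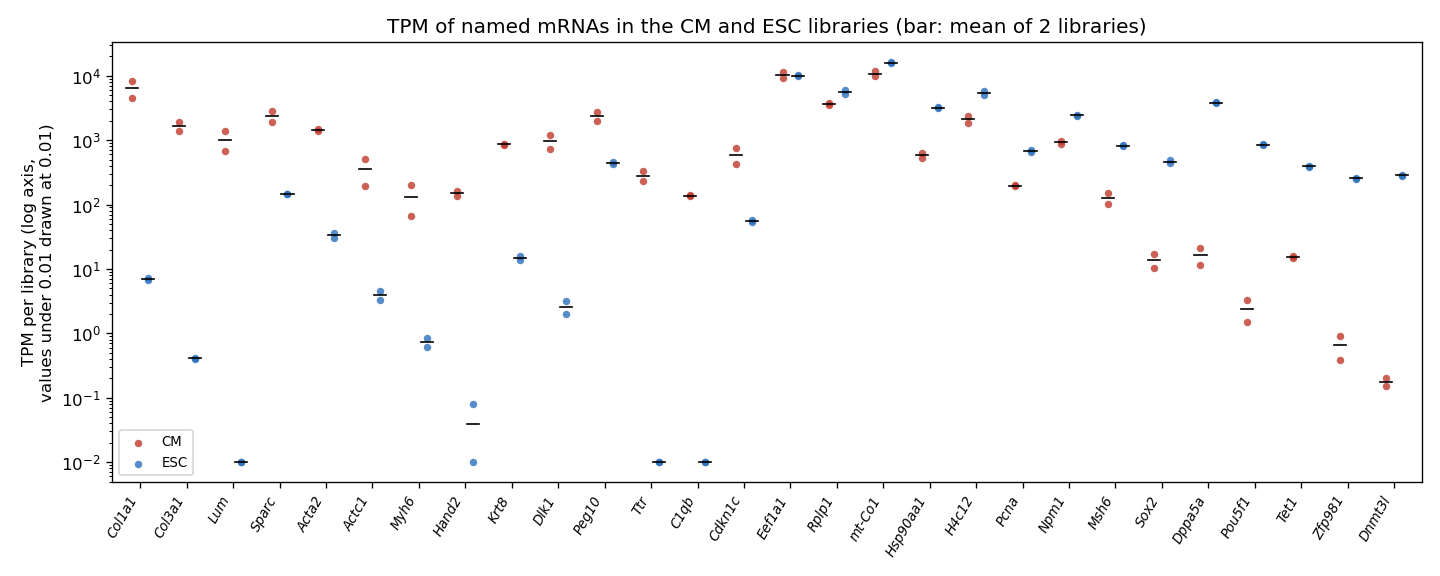
TPM of 28 named mRNAs in the CM libraries (red, left of each pair) and the ESC libraries (blue, right), on a log axis with values under 0.01 drawn at 0.01 and a bar at the mean of 2 libraries. Matrix, muscle, endoderm and macrophage mRNAs on the left rise by orders of magnitude, the most abundant mRNAs in the middle move least, and pluripotency mRNAs on the right fall.

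Function was described with 58 lists of genes, some of which share members, whose counts are read against the 29.1% higher and 21.8% lower of all mRNAs tested. At least 80% of the members tested were called higher in 13 lists, which hold genes of cardiac and smooth muscle, matrix, mesenchyme, epicardium, blood, endoderm, imprinted loci and antigen presentation. At least 80% were called lower in 7 lists, which hold genes of pluripotency, ribosome assembly, DNA replication, mitosis, nucleotide synthesis and the mitochondrial genome.

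**Figure D4:**
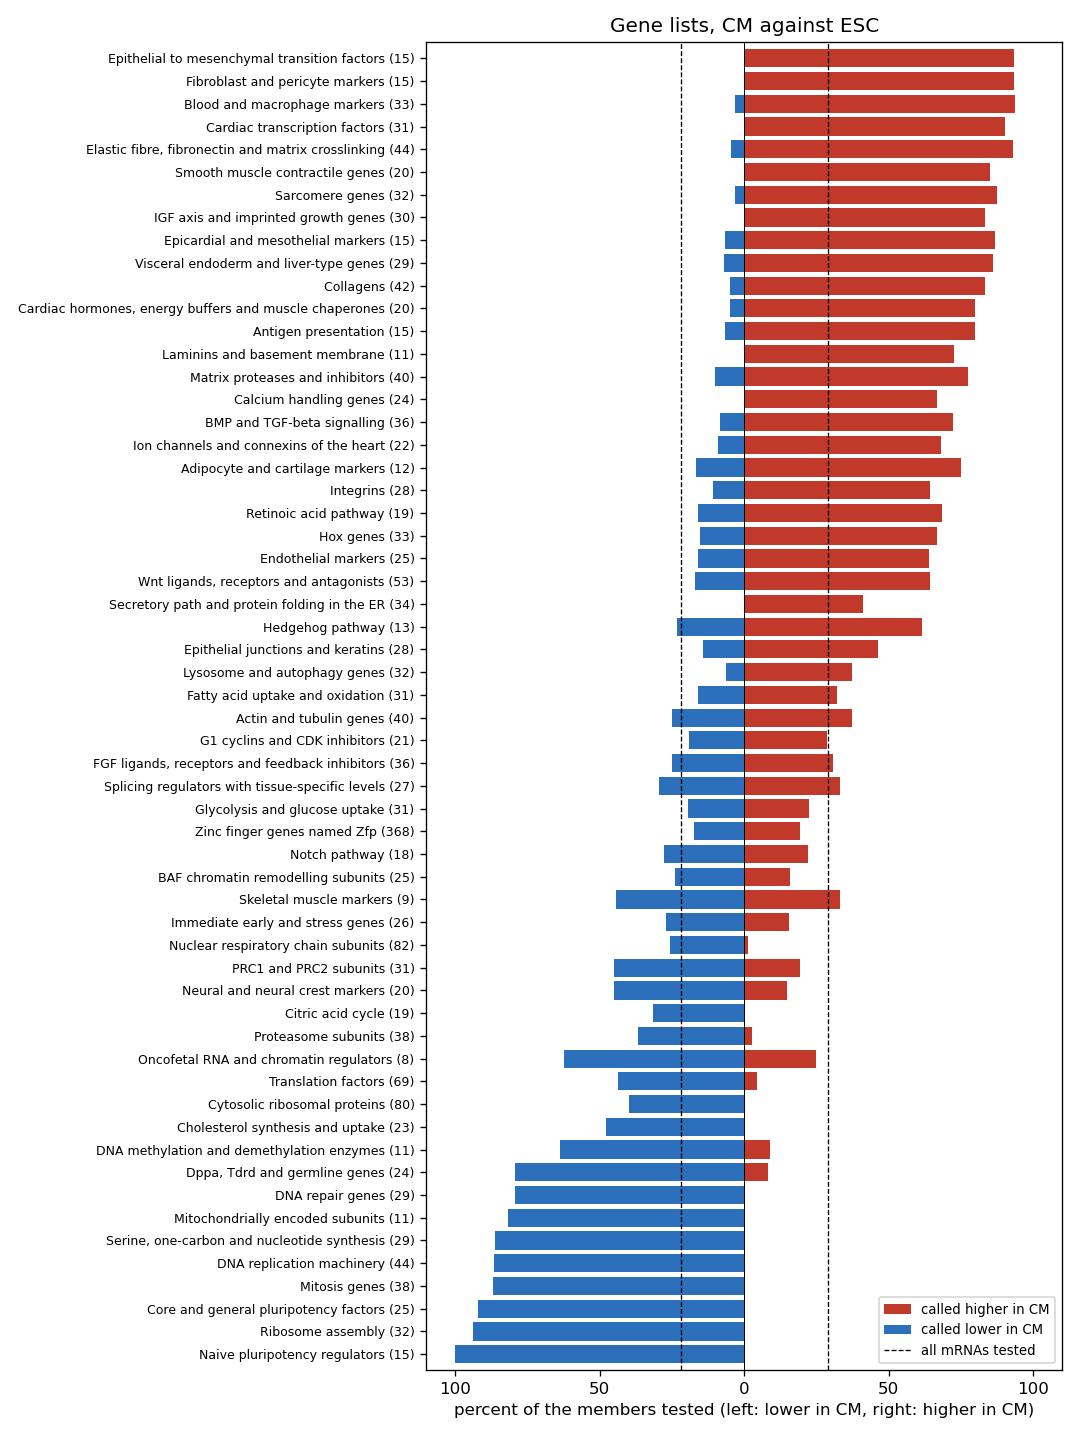
Percent of the members tested of each list called higher (red, to the right) or lower (blue, to the left) in CM against ESC, with the number tested in brackets. Dashed lines mark the 29.1% and 21.8% of all mRNAs tested.

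The pluripotency factors fell almost without exception. All 15 naive pluripotency regulators were called lower (median log2 fold change -6.88), as were 23 of 25 core and general pluripotency factors (median -5.45). Pou5f1, the octamer-binding factor (ENSMUSG00000024406, chromosome 17 from 35506018 to 35510772), was at 3.33 and 1.5 TPM in CM, against 829 and 862 TPM in ESC (-8.85 ± 0.33 SE, edgeR adjusted p = 2.7e-08). Nanog, a homeobox factor of the same network, was at 2.89 and 1.5 TPM in CM, against 267 and 269 TPM in ESC (-7.34 ± 0.22 SE). Sox2, their partner, kept more, at 10.5 and 17.1 TPM in CM, against 483 and 445 TPM in ESC. Esrrb, an orphan nuclear receptor, and Zfp42, a zinc finger marker of the naive state, fell as far, with Esrrb at 1.74 and 1.00 TPM in CM, against 246 and 245 TPM in ESC, and Zfp42 at 5.05 and 3.10 TPM in CM, against 631 and 610 TPM in ESC. Sall4, a zinc finger factor, was at 48.9 and 46.6 TPM in CM, against 370 and 403 TPM in ESC, and at MES it still stood at 351 TPM. Spp1, a secreted phosphoprotein, was not called (it was called lower without CM replicate 1), at 233 and 235 TPM in CM, against 326 and 346 TPM in ESC, but it was at 3.49 TPM at MES and 10.8 TPM at CP. Its fitted change between CM and ESC was -0.96, just inside the limit of 2-fold. Both ends of the path thus lay far above the stages between, with CM below ESC.

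Germline-type genes, among them Dppa and Tdrd genes, fell for the most part, with 19 of 24 called lower and 3 not called. The 2 called higher were X-linked homeobox genes, Rhox6 at 206 and 76.5 TPM in CM, against 2.49 and 3.87 TPM in ESC, and Rhox9 at 31.1 and 9.39 TPM in CM, against 0.723 and 0.523 TPM in ESC. Their relative Rhox5 was not called (it was called lower without CM replicate 1), at 159 and 50.05 TPM in CM, against 102 and 99.4 TPM in ESC. Of 11 enzymes that write, copy or erase DNA methylation 7 were called lower and 1 higher. Tet1, which oxidizes methylcytosine, was at 14.9 and 16.1 TPM in CM, against 377 and 402 TPM in ESC (-5.09 ± 0.10 SE). Its relative Tet3 was the 1 that rose, at 68.6 and 86.6 TPM in CM, against 12.9 and 12.9 TPM in ESC (2.14 ± 0.09 SE). Tet1 was thus the more abundant of this pair in ESC and Tet3 in CM, though the gain of Tet3 was smaller than the loss of Tet1. Dnmt3b, a de novo methyltransferase, was at 28.4 and 22.9 TPM in CM, against 286 and 289 TPM in ESC, and Uhrf1, a partner of the maintenance enzyme, at 110 and 127 TPM in CM, against 541 and 583 TPM in ESC.

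The longest run of neighbouring mRNAs called in the same direction was a block of zinc finger genes. Zinc finger genes of the mouse often stand in such clusters of near copies, and many of their proteins bind transposable elements. On chromosome 4, from 145213463 to 147809788 of GRCm38, 22 neighbouring mRNAs tested were all called lower (median -5.98). The run was found by a search of all chromosomes for at least 7 such neighbours, after the values were known, and its members get no further test. After Tnfrsf1b and Tnfrsf8 it holds 20 genes from Zfp990 to Zfp984, of which 17 have a Zfp symbol. Their log2 fold changes ran from -9.52 to -2.96 (median -6.67), and all 20 were called lower in every setting. Together they were at 108 and 110 TPM in CM, against 2831 and 2687 TPM in ESC, and at 226 TPM in MES and 139 TPM in CP, so most of the loss lay before day 4. Among all 368 genes with a Zfp symbol that were tested, 71 were called higher and 64 lower.

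Single members shared the pattern at different depths. Zfp978 was at 0.629 and 0.524 TPM in CM, against 339 and 313 TPM in ESC (-9.52 ± 0.19 SE, edgeR adjusted p = 3.0e-09). Zfp981 was at 0.384 and 0.923 TPM in CM, against 262 and 252 TPM in ESC. Zfp990, at the start of the block, kept 25.4 and 25.4 TPM in CM, against 321 and 298 TPM in ESC (-4.04 ± 0.12 SE). The next mRNA tested beyond the block, Zfp933, named here for its place, was called higher, at 18.1 and 25 TPM in CM, against 7.12 and 7.84 TPM in ESC (1.07 ± 0.15 SE). Near-identical copies share reads, so the split of counts among the members is uncertain.

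Many promoters of the block resemble each other, and 4 of them are printed to show a part they share. RefSeq windows on GRCm38.p6, from 250 bases before to 50 bases after a start site, were matched for 13 of the 20 genes. A stretch of 15 bases, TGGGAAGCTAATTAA, was found by a script as the longest one held by the most genes. It stands in the windows of 12 genes, and in no other of the 32851 windows searched on both strands (12 windows, 0.0365%). The 66 pairs of these 12 windows were 81.0% to 100% identical (median 90.1%) over 225 to 299 aligned bases, and Zfp600 and Rex2 were identical over 299. In the sequences below the capitals mark the shared stretch, which starts 141 bases before the start site in Zfp980 (chr4:145670447-145670746, plus strand), 135 in Rex2 (chr4:147021600-147021899, plus strand), 136 in Zfp985 (chr4:147553027-147553326, plus strand) and 106 in Zfp534 (chr4:147702582-147702881, minus strand).
Zfp980: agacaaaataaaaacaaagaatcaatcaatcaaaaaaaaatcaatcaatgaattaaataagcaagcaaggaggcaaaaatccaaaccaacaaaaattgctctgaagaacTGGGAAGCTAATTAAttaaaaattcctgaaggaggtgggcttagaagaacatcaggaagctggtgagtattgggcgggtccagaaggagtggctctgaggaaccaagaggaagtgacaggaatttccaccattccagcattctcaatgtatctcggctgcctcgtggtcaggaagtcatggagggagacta
Rex2: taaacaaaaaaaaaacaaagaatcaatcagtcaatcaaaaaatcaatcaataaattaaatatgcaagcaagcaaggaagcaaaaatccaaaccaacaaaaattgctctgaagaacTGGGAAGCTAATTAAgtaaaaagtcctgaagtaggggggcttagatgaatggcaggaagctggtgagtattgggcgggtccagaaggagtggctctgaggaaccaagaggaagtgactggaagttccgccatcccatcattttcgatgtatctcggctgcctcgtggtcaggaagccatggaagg
Zfp985: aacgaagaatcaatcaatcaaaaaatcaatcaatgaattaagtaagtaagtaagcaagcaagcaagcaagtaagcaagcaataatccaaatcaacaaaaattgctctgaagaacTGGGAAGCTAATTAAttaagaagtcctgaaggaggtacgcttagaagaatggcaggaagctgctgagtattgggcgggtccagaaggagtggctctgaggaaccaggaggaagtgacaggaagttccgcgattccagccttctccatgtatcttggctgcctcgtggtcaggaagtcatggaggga
Zfp534: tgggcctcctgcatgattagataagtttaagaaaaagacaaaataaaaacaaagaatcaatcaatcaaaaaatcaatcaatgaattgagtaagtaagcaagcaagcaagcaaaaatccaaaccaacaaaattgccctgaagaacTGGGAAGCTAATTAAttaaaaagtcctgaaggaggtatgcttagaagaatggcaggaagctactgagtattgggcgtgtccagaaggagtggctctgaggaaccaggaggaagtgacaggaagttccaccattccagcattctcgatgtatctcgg
These genes were among the falls, with Zfp980 at 0.455 and 0.0561 TPM in CM, against 135 and 127 TPM in ESC, and Rex2 at 0.0930 and 0.568 TPM in CM, against 146 and 135 TPM in ESC. Zfp985 was at 2.75 and 2.74 TPM in CM, against 143 and 141 TPM in ESC, and Zfp534 at 0.911 and 1.32 TPM in CM, against 164 and 159 TPM in ESC. A stretch shared by similar promoters is a description and says nothing of a factor that may bind it.

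**Figure D5:**
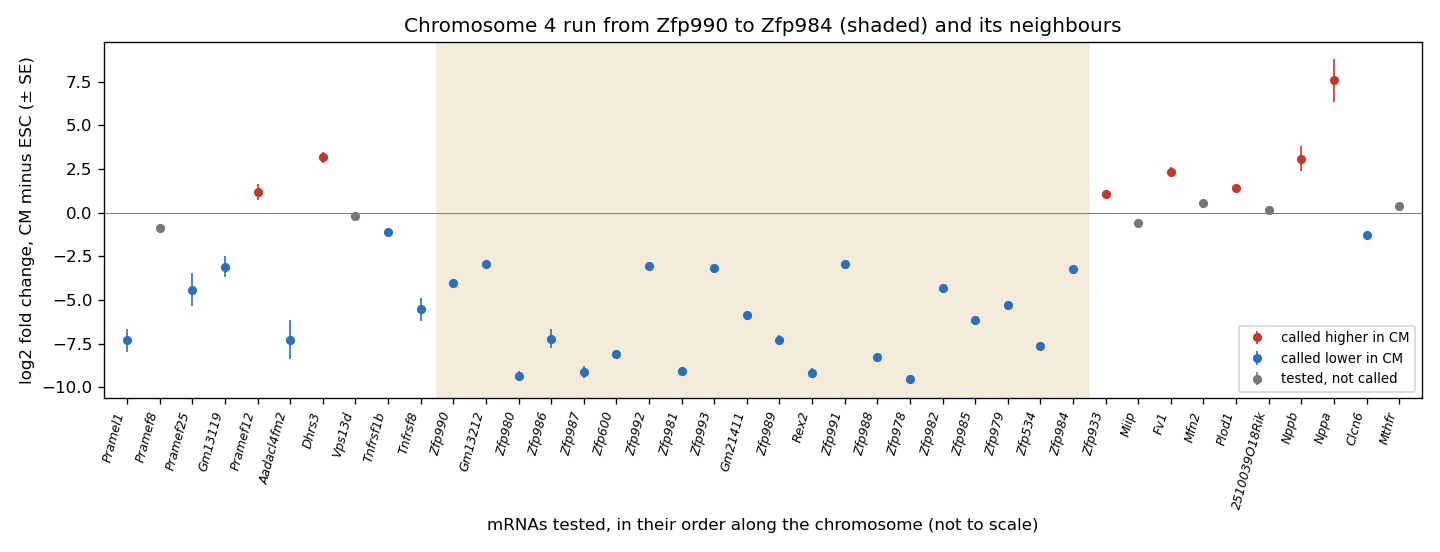
Fitted log2 fold change, CM minus ESC, with its SE, of the 20 genes from Zfp990 to Zfp984 (shaded) and of the 10 mRNAs tested on either side, in chromosome order. All shaded genes lie between -9.52 and -2.96, and Zfp933 next to them lies at 1.07.

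Cardiac transcription factors rose with few exceptions. Of 31 such factors 28 were called higher and none lower (median 3.80). Their mean sum was 1453 TPM at MES, 1703 TPM at CP and 1245 TPM in CM, against 244 TPM in ESC. Hand2, a basic helix-loop-helix factor of the heart, was at 135 and 163 TPM in CM and had 1 count in the ESC libraries together, a ratio of counts of 3277 (95% interval 588 to 129474). Hand1, its relative, was at 217 and 143 TPM in CM, against 0.450 and 1.77 TPM in ESC, and had peaked at 578 TPM at MES. Tbx20, a T-box factor, was at 118 and 120 TPM in CM, against 0.180 and 0.186 TPM in ESC (8.90 ± 0.16 SE), and Gata6, a zinc finger factor, at 88.3 and 95.8 TPM in CM, against 3.79 and 2.74 TPM in ESC. Nkx2-5, a homeobox factor that marks cardiac progenitors, separated the CM replicates, at 2.24 and 14.8 TPM in CM, against 0 and 0.216 TPM in ESC. Tead1, a partner of Yap in muscle promoters, was not called, at 150 and 184 TPM in CM, against 100 and 108 TPM in ESC.

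Genes of the sarcomere, the unit that contracts, rose too, with 28 of 32 called higher and 1 lower (median 4.59). Their summed level was 1740 and 2789 TPM in CM, against 139 and 146 TPM in ESC. The mean sum was 879 TPM at MES, 2877 TPM at CP and 2265 TPM in CM, and thus not highest in CM. Actc1, cardiac alpha-actin (ENSMUSG00000068614, chromosome 2 from 114047282 to 114053548), was at 195 and 514 TPM in CM, against 3.34 and 4.48 TPM in ESC (6.03 ± 0.48 SE, edgeR adjusted p = 2.4e-06). Myl7, the atrial regulatory light chain, was at 102 and 422 TPM in CM, against 4.27 and 5.04 TPM in ESC (5.32 ± 0.68 SE). Myh6, the alpha heavy chain, was at 66.7 and 199 TPM in CM, against 0.856 and 0.608 TPM in ESC, and Tnnt2, cardiac troponin T, at 26.2 and 46.0 TPM in CM, against 0.0464 and 0.0480 TPM in ESC. In each of these 4 the second CM library was the higher one, and CM did not overlap ESC. Myh7, the beta heavy chain, was closer between replicates, at 53.4 and 75.6 TPM in CM, against 0.313 and 0.259 TPM in ESC. Ttn, the giant spring of the sarcomere, was not called, at 19.3 and 41.6 TPM in CM, against 16.5 and 16.6 TPM in ESC. Xirp2, an actin-binding protein of striated muscle, went the other way, with 0.0422 and 0 TPM in CM, against 1.66 and 1.66 TPM in ESC. It had at most 3 counts in CM, all in the first library, which makes an 87-fold lower count (95% interval 29.4 to 424).

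The CArG box is the site of serum response factor, and it is held on either strand by 1.63% of all RefSeq windows. The windows of Actc1 (chr2:114052826-114053125, minus strand), Myl7 (chr11:5898733-5899032, minus strand) and Myl9 (chr2:156775214-156775513, plus strand) each hold 1, which starts 47, 61 and 161 bases before the start site. They were picked among the muscle genes because they hold one, and are printed with it in capitals. Myl9, a regulatory light chain of smooth muscle, was at 158 and 181 TPM in CM, against 9.29 and 8.48 TPM in ESC (3.81 ± 0.16 SE).
Actc1: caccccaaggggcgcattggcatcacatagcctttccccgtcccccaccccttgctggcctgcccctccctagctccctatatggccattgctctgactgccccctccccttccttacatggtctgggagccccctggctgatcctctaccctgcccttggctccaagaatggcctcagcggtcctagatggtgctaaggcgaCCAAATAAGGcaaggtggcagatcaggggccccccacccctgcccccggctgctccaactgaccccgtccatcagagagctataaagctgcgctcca
Myl7: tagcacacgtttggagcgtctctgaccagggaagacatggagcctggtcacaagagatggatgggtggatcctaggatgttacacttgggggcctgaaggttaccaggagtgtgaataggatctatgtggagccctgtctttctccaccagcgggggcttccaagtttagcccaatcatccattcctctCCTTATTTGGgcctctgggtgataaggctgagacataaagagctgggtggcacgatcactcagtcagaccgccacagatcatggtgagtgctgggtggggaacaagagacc
Myl9: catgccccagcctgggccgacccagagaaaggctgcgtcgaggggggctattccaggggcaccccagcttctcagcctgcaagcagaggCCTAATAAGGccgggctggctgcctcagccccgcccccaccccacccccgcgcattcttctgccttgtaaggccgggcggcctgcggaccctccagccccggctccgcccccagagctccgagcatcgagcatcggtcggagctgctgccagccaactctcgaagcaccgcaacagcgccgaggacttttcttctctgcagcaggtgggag

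Calcium handling and excitability rose less evenly than the filaments. Of 24 calcium handling genes tested 16 were called higher and none lower (median 1.75). Jph2, which couples the surface membrane to the calcium store, was at 63.7 and 58.4 TPM in CM, against 0.888 and 0.830 TPM in ESC (5.71 ± 0.25 SE). Slc8a1, the sodium-calcium exchanger, was at 29.4 and 61.1 TPM in CM, against 0.201 and 0.277 TPM in ESC. Ryr2, the cardiac calcium release channel, had a base level in ESC, at 17.1 and 19.3 TPM in CM, against 5.20 and 5.29 TPM in ESC (1.35 ± 0.16 SE). Of 22 ion channels and connexins of the heart 15 were called higher and 2 lower. Kcnj2, an inward rectifier of the resting potential, was at 21.8 and 19.0 TPM in CM, against 0.0991 and 0.342 TPM in ESC, and Hcn4, the pacemaker channel, at 12.6 and 13.7 TPM in CM, against 0.265 and 0.578 TPM in ESC. Kcnip2, a subunit of the transient outward current, was lower in CM, at 2.37 and 2.81 TPM, against 6.27 and 6.63 TPM in ESC. Gja1, the main ventricular connexin, was not called, at 75 and 85.5 TPM in CM, against 83.0 and 84.7 TPM in ESC.

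Hormones, energy buffers and chaperones of muscle completed the cardiac set, with 16 of 20 called higher and 1 lower. Nppa, atrial natriuretic peptide, was at 7.02 and 5.71 TPM in CM with no read in ESC, at least 17.3-fold higher. Fhl2, a LIM-domain protein of the heart, was at 144 and 98.0 TPM in CM, against 1.14 and 0.392 TPM in ESC. Hspb1, a small heat shock protein, was the 1 that fell, at 357 and 310 TPM in CM, against 1381 and 1402 TPM in ESC (-2.49 ± 0.22 SE). Its fall made the list's summed level lower in CM, at 1116 and 1050 TPM, against 1582 and 1616 TPM in ESC, although most members rose.

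The list of smooth muscle genes had a larger summed level in CM than the sarcomere list. The sarcomere list shares Tpm1 with it and also holds Myl9, so these sums do not rank the types of muscle. Of 20 contractile genes of smooth muscle 17 were called higher and none lower, with a summed level of 3716 and 3991 TPM in CM, against 308 and 314 TPM in ESC. Acta2, smooth muscle alpha-actin, was at 1398 and 1474 TPM in CM, against 30.7 and 36.8 TPM in ESC (4.97 ± 0.17 SE, edgeR adjusted p = 1.6e-08), and it had been higher at CP, at 3076 TPM. Tagln, a calponin-related protein, was at 371 and 577 TPM in CM, against 20.6 and 19.4 TPM in ESC. Myh11, the heavy chain of mature smooth muscle, remained low, at 1.86 and 1.66 TPM in CM, against 0.166 and 0.196 TPM in ESC.

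Extracellular matrix took the largest new share of the pool. Of 42 collagen genes tested 35 were called higher and 2 lower (median 4.49), with a summed level of 17258 and 10985 TPM in CM, against 265 and 270 TPM in ESC. Col3a1, type III collagen (ENSMUSG00000026043, chromosome 1 from 45311538 to 45349706), was at 1900 and 1409 TPM in CM, against 0.403 and 0.417 TPM in ESC (11.55 ± 0.41 SE, edgeR adjusted p = 2.0e-08). Col5a1, a fibril-nucleating chain, was at 1176 and 831 TPM in CM, against 5.09 and 5.58 TPM in ESC. The first CM library held more of each of them. Col6a5 and Col6a4 were the 2 that fell, and both were under 6 TPM in every library of CM and ESC. The window of Col3a1 (chr1:45311288-45311587, plus strand) is printed as that of the strongest rise among the collagens. It holds a TATAAA, in capitals, that starts 117 bases before the start site, a match that 13.6% of all windows have on either strand.
Col3a1: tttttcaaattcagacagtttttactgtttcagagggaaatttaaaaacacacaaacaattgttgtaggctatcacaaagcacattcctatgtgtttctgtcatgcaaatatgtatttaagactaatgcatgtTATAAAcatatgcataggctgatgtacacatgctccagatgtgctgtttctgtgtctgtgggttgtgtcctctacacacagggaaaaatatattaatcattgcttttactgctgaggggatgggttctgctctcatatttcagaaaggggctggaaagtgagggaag

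The proteins that assemble matrix rose with the collagens. Of 44 genes of elastic fibres, fibronectin and crosslinking 41 were called higher and 2 lower (median 4.34). Fn1, fibronectin, was already present in ESC, at 2290 and 1896 TPM in CM, against 323 and 332 TPM in ESC (2.25 ± 0.14 SE). Postn, periostin, was nearly absent there, at 534 and 502 TPM in CM, against 0.0827 and 0.0427 TPM in ESC. Ltbp4, which binds latent TGF-beta, fell, at 41.8 and 46.8 TPM in CM, against 120 and 120 TPM in ESC. Receptors and cutters of matrix followed, with 18 of 28 integrins called higher and 3 lower, 8 of 11 laminin and basement membrane genes called higher, and 31 of 40 proteases and inhibitors called higher and 4 lower. Itgb1, the common beta chain, was at 1068 and 1121 TPM in CM, against 262 and 287 TPM in ESC. Timp2, an inhibitor of metalloproteases, was at 168 and 164 TPM in CM, against 1.52 and 1.91 TPM in ESC (6.16 ± 0.15 SE), and Mmp2, a gelatinase, at 500 and 470 TPM in CM, against 16.5 and 16.8 TPM in ESC. Timp1 was not called, at 55.8 and 44.8 TPM in CM, against 41.7 and 41.5 TPM in ESC.

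Mesenchymal genes rose, and so did some epithelial ones. All but 1 of 15 factors of the transition from epithelium to mesenchyme were called higher, as were 14 of 15 fibroblast and pericyte markers. Cdh11, a cadherin of mesenchyme, was at 178 and 180 TPM in CM, against 0.121 and 0.146 TPM in ESC (9.93 ± 0.18 SE), and Vim, an intermediate filament protein, at 977 and 871 TPM in CM, against 214 and 241 TPM in ESC. Of 28 epithelial junction and keratin genes 13 were called higher and 4 lower. Krt8 and Krt18, keratins of simple epithelia, stood in CM at 868 and 844 TPM and at 1005 and 1073 TPM, against 15.9 and 14 TPM and 22.7 and 18.0 TPM in ESC. Both had been higher at MES, at 1616 and 1668 TPM. E-cadherin, Cdh1, was at 176 and 215 TPM in CM, against 308 and 315 TPM in ESC (-1.12 ± 0.14 SE), and its call was lost with library totals, with a test against 2-fold and with the fold of mean TPM.

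Epicardial and mesothelial markers separated the CM libraries. Of 15 such genes 13 were called higher and 1 lower. Upk3b, a mesothelial membrane protein, was at 168 and 37.8 TPM in CM, against 0.714 and 1.32 TPM in ESC (6.28 ± 0.78 SE). Upk1b was at 105 and 35.0 TPM in CM with no read in ESC, at least 469-fold higher. Wt1, the zinc finger factor that defines the epicardium, was not called, at 34.2 and 19.0 TPM in CM, against 23.2 and 24.2 TPM in ESC. The higher epicardial levels of the first CM library and the higher sarcomere levels of the second lay within 1 stage, and their part in the stage's other changes was not tested.

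Several macrophage genes rose from no reads in ESC. Of 33 blood and macrophage markers 31 were called higher and 1 lower (median 5.83). C1qb, a subunit of complement C1q made by macrophages, was at 139 and 135 TPM in CM with no read in ESC, at least 468-fold higher. Lyz2, lysozyme, was at 81.2 and 154 TPM in CM and Tyrobp, an adaptor of myeloid receptors, at 121 and 84.2 TPM in CM, both with no read in ESC. Csf1r, the receptor that macrophages need, was at 76.5 and 70.2 TPM in CM, against 0.0312 and 0.0322 TPM in ESC. These levels were far lower at CP, where Csf1r stood at 4.55 TPM. Hba-x, an embryonic globin, showed the reverse order, at 11.9 and 11.2 TPM in CM, against 0.192 and 0 TPM in ESC, but at 1114 TPM at CP. The defining markers of macrophages summed to 148 and 135 TPM in CM and 5.67 TPM in CP, and those of red cells to 45.6 and 53.2 TPM in CM and 1819 TPM in CP, so the markers changed places between day 6 and day 10.

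Endothelial markers split by direction. Of 25 such genes 16 were called higher and 4 lower. Kdr, the VEGF receptor of early endothelium, was at 62.0 and 55.3 TPM in CM, against 0.179 and 0.412 TPM in ESC (7.20 ± 0.24 SE), and Cdh5, the cadherin of endothelial junctions, at 52.6 and 34.4 TPM in CM, against 0.214 and 0.133 TPM in ESC. Pecam1, an adhesion molecule that ESCs also carry, was lower, at 13.1 and 14.8 TPM in CM, against 43.2 and 47.0 TPM in ESC (-2.13 ± 0.11 SE). Mmrn2, Nos3 and Robo4 were the others that fell.

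Genes of visceral endoderm and liver rose beside the mesoderm, with 25 of 29 called higher and 2 lower (median 3.92). Ttr, a thyroid hormone carrier, was at 229 and 332 TPM in CM with no read in ESC, at least 1031-fold higher. Afp, alpha-fetoprotein, was at 255 and 463 TPM in CM and had 1 count in ESC (ratio of counts 11207, 95% interval 2011 to 442688). Rbp4, the carrier of retinol, was at 631 and 595 TPM in CM, against 1.88 and 1.52 TPM in ESC (8.04 ± 0.35 SE). Lrp2, an endocytic receptor, fell to 28.2 and 23.5 TPM in CM, against 84.6 and 88.0 TPM in ESC. Neural genes did not join the rise, with 3 of 20 called higher and 9 lower. Stmn2, a neuronal tubulin regulator, was at 0.903 and 0.321 TPM in CM, against 84.0 and 85.5 TPM in ESC. Of 22 skeletal muscle markers only 9 passed the filter, and its defining factors Myod1 and Myog did not, at up to 0.724 TPM in any CM library.

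Among signalling genes, ligands and receptors of the BMP, Wnt, retinoic acid and Hedgehog pathways rose more often than they fell. For BMP and TGF-beta 26 of 36 were called higher and 3 lower, for Wnt 34 of 53 and 9, for retinoic acid 13 of 19 and 3, and for Hedgehog 8 of 13 and 3. Tgfbr3, betaglycan, was at 204 and 130 TPM in CM, against 1.68 and 2.16 TPM in ESC (6.02 ± 0.32 SE). Fzd1, a Wnt receptor, was at 76.6 and 123 TPM in CM, against 2.19 and 2.35 TPM in ESC, while Fzd5 was lower, at 17.5 and 24.4 TPM in CM, against 97.7 and 104 TPM in ESC. Gas1, a Hedgehog co-receptor, was at 202 and 156 TPM in CM, against 3.77 and 3.64 TPM in ESC. Gli1, a target of the same pathway, went the other way, at 6.80 and 11 TPM in CM, against 23.6 and 21.7 TPM in ESC. Of the retinoic acid receptors Rxra rose, at 82.0 and 72.8 TPM in CM, against 11.5 and 11.7 TPM in ESC, and Rarg fell (-2.50 ± 0.12 SE, with means of 37 TPM in CM and 155 TPM in ESC).

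FGF signalling moved in both directions. Of 36 genes 11 were called higher (30.6%) and 9 lower (25%), near the 29.1% and 21.8% of all mRNAs tested. This order turned without CM replicate 2 (11 and 12), without ESC replicate 1 (8 and 9) and with a test against 2-fold (7 and 9). Among the rises were receptors, with Fgfr3 at 25.1 and 23.2 TPM in CM, against 1.16 and 1.01 TPM in ESC (4.04 ± 0.16 SE), and Fgfr2 at 52.3 and 62.2 TPM in CM, against 11.4 and 10.4 TPM in ESC. The falls included the ESC ligand Fgf4, ETS factors and feedback inhibitors, while more FGF ligands rose than fell. Fgf4, the autocrine ligand of ESCs, was at 0.570 and 0.492 TPM in CM, against 192 and 185 TPM in ESC (-8.88 ± 0.27 SE). Etv5, an ETS factor downstream of ERK, was at 37.1 and 53.4 TPM in CM, against 398 and 453 TPM in ESC, and the feedback inhibitors Spry2 and Spry4 were at 53.8 and 84.2 TPM and at 20.3 and 25.6 TPM in CM, against 205 and 209 TPM and 132 and 144 TPM in ESC. Of 18 Notch genes 4 were called higher and 5 lower, and 5 and 4 without ESC replicate 2.

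Imprinted growth genes formed one of the most abundant rises. Of 30 genes of the IGF axis and of imprinted loci 25 were called higher and none lower (median 3.49), with a summed level of 14077 and 11809 TPM in CM, against 1588 and 1664 TPM in ESC. Dlk1, a secreted Notch-like protein, was at 1217 and 720 TPM in CM, against 2.00 and 3.12 TPM in ESC (8.15 ± 0.39 SE). Plagl1, a zinc finger factor, was at 1007 and 907 TPM in CM, against 1.61 and 2.31 TPM in ESC (8.50 ± 0.29 SE), and Mest at 1036 and 1126 TPM in CM, against 165 and 193 TPM in ESC. Hox genes, which pattern the body axis, were called higher for 22 of 33 and lower for 5. Hoxc6 was at 18.9 and 27.4 TPM in CM with no read in ESC, at least 173-fold higher, and Hoxb4 at 17.9 and 19.8 TPM in CM, against 0.491 and 1.01 TPM in ESC. The 7 neighbours from Hoxb8 to Hoxb2 on chromosome 11 were all called higher. Hoxb13 and Hoxd13, at the posterior end of their clusters, were lower in CM and under 4 TPM in every CM and ESC library. Antigen presentation rose with 12 of 15 genes called higher, led by B2m, the light chain of MHC class I, at 379 and 357 TPM in CM, against 20.9 and 18.8 TPM in ESC (3.77 ± 0.15 SE).

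The machinery of growth fell. Of 32 ribosome assembly genes 30 were called lower and none higher (median -2.17), and their summed level was 2578 and 2859 TPM in CM, against 8171 and 8183 TPM in ESC. Npm1, nucleophosmin, was at 979 and 881 TPM in CM, against 2483 and 2409 TPM in ESC (-1.83 ± 0.11 SE, edgeR adjusted p = 4.5e-07). Ncl, nucleolin, was at 113 and 141 TPM in CM, against 506 and 539 TPM in ESC. The ribosomal proteins that these factors assemble changed far less. Of 80 cytosolic ribosomal protein genes 32 were called lower and none higher (median -0.96), and their summed level was 65899 and 55944 TPM in CM, against 87193 and 81702 TPM in ESC. This count turned on the scale and on the CM libraries, with 4 lower with the fold of mean TPM, 13 with library totals, 56 without CM replicate 1 and 17 without CM replicate 2. Rplp1, the most abundant of them, was at 3765 and 3551 TPM in CM, against 5940 and 5290 TPM in ESC, and its call was among those lost. Of 69 translation factors 30 were called lower and 3 higher, and 11 lower with the fold of mean TPM, with Eif4a1, an RNA helicase of initiation, at 614 and 605 TPM in CM, against 1545 and 1450 TPM in ESC.

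Synthesis of DNA and its building blocks fell together. Of 44 DNA replication genes 38 were called lower (median -1.74), of 29 genes of serine, one-carbon and nucleotide synthesis 25 (median -1.71), of 38 mitosis genes 33 (median -1.49) and of 29 DNA repair genes 23 (median -1.61), and none of the members was called higher. With the fold of mean TPM 15 repair genes were lower. Pcna, the sliding clamp of replication, was at 198 and 196 TPM in CM, against 700 and 653 TPM in ESC (-2.22 ± 0.11 SE, edgeR adjusted p = 1.4e-07). Rrm2, which makes deoxynucleotides, was at 141 and 194 TPM in CM, against 486 and 487 TPM in ESC. Cdc20, an activator of the anaphase-promoting complex, was at 139 and 142 TPM in CM, against 474 and 456 TPM in ESC. Msh6, of mismatch repair, stood out in its list at 101 and 150 TPM in CM, against 813 and 829 TPM in ESC (-3.17 ± 0.13 SE). Mki67, the usual marker of dividing cells, was not called, at 111 and 137 TPM in CM, against 128 and 159 TPM in ESC. None of the mRNAs of dividing cells named here thus came near 0 in CM.

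Histones of S phase followed replication. Of 62 replication-dependent histone genes tested, a group formed after the values were known, 53 were called lower and none higher (median -1.61), 39 to 54 over the settings. Their summed level was 29873 and 24996 TPM in CM, against 63926 and 60856 TPM in ESC, which is 3.18% of the pool in CM and 7.27% in ESC. H4c12 was at 2413 and 1864 TPM in CM, against 5711 and 4960 TPM in ESC (-1.75 ± 0.17 SE), and the linker histone H1f1 at 688 and 438 TPM in CM, against 2818 and 2538 TPM in ESC (-2.67 ± 0.22 SE). Near-identical histone copies share reads, so single members are uncertain.

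Regulators of the G1 phase moved in both directions, with 6 of 21 called higher (28.6%) and 4 lower (19%). These shares were near the 29.1% and 21.8% of all mRNAs tested. Cdkn1c, a CDK inhibitor and imprinted gene, was at 759 and 430 TPM in CM, against 54.0 and 56.9 TPM in ESC (3.01 ± 0.28 SE). Ccnd2, a D-type cyclin, was at 157 and 231 TPM in CM, against 5.22 and 6.09 TPM in ESC (4.65 ± 0.19 SE), and Cdkn1a and Cdkn2b, CDK inhibitors, also rose. Ccne1, cyclin E, was at 48.1 and 47.8 TPM in CM, against 196 and 209 TPM in ESC (-2.52 ± 0.11 SE).

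Energy genes fell or were not called for the most part. Of 11 mitochondrially encoded subunits tested 9 were called lower (median -1.80), and their summed level was 14016 and 17407 TPM in CM, against 23326 and 25253 TPM in ESC. mt-Cytb, of complex III, was at 625 and 1068 TPM in CM, against 2105 and 2385 TPM in ESC (-1.87 ± 0.23 SE). Of 82 nuclear respiratory chain subunits 60 were not called, 21 were called lower and 1 higher, and only 2 were lower with the fold of mean TPM. The 1 that rose was Cox4i2, an alternative subunit of cytochrome c oxidase, at 25.4 and 9.98 TPM in CM, against 1.37 and 0.472 TPM in ESC. Fatty acid genes, on which the adult heart draws, were called higher for 10 of 31 (32.3%) and lower for 5 (16.1%), beside 29.1% and 21.8% of all mRNAs tested. Lpl, lipoprotein lipase, was at 101 and 76.2 TPM in CM, against 5.10 and 5.02 TPM in ESC (3.70 ± 0.21 SE), whereas Fabp3, the fatty acid binding protein of heart, was not called (it was called lower by DESeq2 and with RLE scaling), at 205 and 229 TPM in CM, against 312 and 317 TPM in ESC. Glycolysis was split, with 7 of 31 called higher (22.6%) and 6 lower (19.4%), or 6 and 8 without CM replicate 1. Eno1, an enolase, was at 534 and 436 TPM in CM, against 957 and 993 TPM in ESC. Cholesterol genes were called lower for 11 of 23 and higher for none, and for 2 with the fold of mean TPM, 3 with library totals and 6 without CM replicate 2.

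Subunits of chromatin regulators moved in both directions. Of 31 Polycomb genes 14 were called lower (45.2%) and 6 higher (19.4%), and 9 lower with the fold of mean TPM. Phc1, a PRC1 subunit of ESCs, was at 36.7 and 41.0 TPM in CM, against 432 and 439 TPM in ESC (-3.93 ± 0.13 SE), while its relative Phc2 was at 59.5 and 83.0 TPM in CM, against 13.8 and 14.4 TPM in ESC (1.88 ± 0.11 SE). Among the PRC2 partners Jarid2 and Mtf2 fell, and Cbx8 of PRC1 rose. Of 25 genes of the BAF remodeller 6 were called lower (24%), 4 higher (16%) and 15 not called. Of all mRNAs tested 21.8% were called lower and 29.1% higher. The order of the BAF counts turned with library totals (5 higher, 4 lower) and with the fold of mean TPM (6 higher, 3 lower). Smarca2, one of its alternative ATPases, was at 34.3 and 35.8 TPM in CM, against 0.731 and 0.456 TPM in ESC (5.44 ± 0.17 SE). Smarca4, the other ATPase, was not called and stayed the more abundant, at 124 and 156 TPM in CM, against 147 and 162 TPM in ESC. Smarcd3 was at 9.32 and 14.8 TPM in CM, against 1.02 and 1.85 TPM in ESC, and Smarcd1 at 42.7 and 64.3 TPM in CM, against 153 and 165 TPM in ESC. Of 27 splicing regulators 9 were called higher (33.3%) and 8 lower (29.6%), beside 29.1% and 21.8% of all mRNAs tested. Mbnl3 of the muscleblind family was at 113 and 61.0 TPM in CM, against 4.20 and 4.91 TPM in ESC. Srsf2 was at 291 and 302 TPM in CM, against 655 and 645 TPM in ESC.

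The oncofetal RNA regulators were lower for 5 of 8. Lin28a, which blocks let-7 maturation, was at 55.9 and 39.6 TPM in CM, against 376 and 402 TPM in ESC, and had been higher at MES, at 612 TPM. Hmga2, a chromatin architectural protein, rose, at 92.2 and 173 TPM in CM, against 17.1 and 16.7 TPM in ESC, while Hmga1 fell, at 60.3 and 59.9 TPM in CM, against 266 and 267 TPM in ESC.

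Genes of secretion and degradation rose in part. Of 34 secretory genes of the endoplasmic reticulum 14 were called higher and none lower, and 7 without CM replicate 1. Their summed level was 13314 and 11920 TPM in CM, against 6069 and 6249 TPM in ESC. Of 32 lysosome and autophagy genes 12 were called higher (37.5%, beside 29.1% of all mRNAs tested) and 2 lower (6.25%, beside 21.8%). With the fold of mean TPM 19 were higher. Ctsb, cathepsin B, was at 461 and 485 TPM in CM, against 50.1 and 50.4 TPM in ESC (2.79 ± 0.09 SE), and Psap, a precursor of sphingolipid activators, at 852 and 770 TPM in CM, against 198 and 196 TPM in ESC. Of 38 proteasome subunits 14 were called lower and 1 higher, and 4 lower with the fold of mean TPM. The 1 that rose was Psmb8 of the immunoproteasome, at 3.83 and 3.19 TPM in CM, against 0.319 and 0.550 TPM in ESC. In the cytoskeleton 15 of 40 actin and tubulin genes were called higher (37.5%) and 10 lower (25%). These shares were not far from the 29.1% and 21.8% of all mRNAs tested. Tubulins led the falls, with Tuba1b at 977 and 803 TPM in CM, against 1918 and 2033 TPM in ESC (-1.58 ± 0.14 SE).

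Families of genes with a shared symbol were counted as well, chosen after the values were known. Of 212 symbol stems with at least 10 members tested, 34 had at least 60% of their members called higher and 6 had at least 60% called lower. The 6 were Olfr, Mcm, Utp, Nup, Klf and the stem H, which mixes histones with MHC genes. Members too low to be tested are left out of these shares, and only 18 of 1138 Olfr genes were tested. Low genes pass the filter through a stage where they are high, so their direction partly follows from it. Mcm genes, of the replicative helicase, were called lower for 9 of 10, and summed to 751 and 812 TPM in CM, against 2476 and 2473 TPM in ESC. Nup genes, of the nuclear pore, were called lower for 19 of 21 and higher for 1, and summed to 1367 and 1372 TPM in CM, against 2652 and 2699 TPM in ESC. Pcdhb genes, clustered protocadherins, were called higher for all 17 tested, and summed to 39.6 and 62.9 TPM in CM, against 1.35 and 1.49 TPM in ESC. Ifi genes, named for their response to interferon, were called higher for all 12 tested, and summed to 280 and 232 TPM in CM, against 3.33 and 5.40 TPM in ESC. Krt genes were called higher for 8 of 11 and lower for 2, and summed to 2651 and 2513 TPM in CM, against 54.8 and 50.4 TPM in ESC.

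In places, neighbours on a chromosome were called together. Among 15259 mRNAs tested with a position, 33 runs of at least 7 neighbours were called in 1 direction, 23 higher and 10 lower. Whether this exceeds the number that unrelated neighbours would give was not tested. Besides the block on chromosome 4, the 10 lower ones held 4 histone runs on chromosome 13 with 7 to 13 members. Among the higher ones were the Serpinb genes of chromosome 13 (11 members, median 8.50), the run from Alb and Afp to Parm1 on chromosome 5 (9 members, median 8.30) and the run from Acta2 to Slc16a12 on chromosome 19 (9 members, median 4.97), which joins smooth muscle actin with interferon-induced Ifit genes. Runs of gene families share sequence and hence reads, so their members are not independent.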

How the data were processed

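Strand-specific RNA-seq libraries depleted of ribosomal RNA were made from 2 biological replicates at each of 4 stages. Per the labels and the methods, the authors trimmed reads with Trim Galore 0.6.6, aligned them to GRCm38 with HISAT2 2.2.1 and counted reads per gene with featureCounts 2.0.1, and ran DESeq2 1.34.0. The deposited table of counts holds raw counts per gene and was tested as deposited. The deposited TPM values are the authors' counts per gene length scaled to an equal sum per library, and recomputing them from the counts and the deposited gene lengths gave differences of at most 4.35e-06.

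All 8 libraries (total counts 18046063 to 19728777) were fitted with edgeR 4.0.16 (quasi-likelihood F-test, TMM scaling, filterByExpr by stage, a term per stage, common dispersion 0.0163). The contrast was CM minus ESC, with Benjamini-Hochberg adjustment over 20071 genes, and SE is the log2 fold change over the root of F. The tests were tested on simulated data, drawn with the same dispersion for all libraries, which does not cover the wider spread in CM. The p-values measure the spread between 2 replicates per stage, estimated jointly over all stages. The CM replicates differed most, so SE and p-values may understate the spread in CM. With quality weights per stage, limma voom called 4358 mRNAs higher and 3250 lower. DESeq2 1.42.0 and limma 3.58.1 (R 4.3.3), and other scalings, filters and left-out libraries, were alternatives. Shares of the pool are of the summed TPM of protein-coding genes. Where a stage had no count, a floor of 3 counts over its 2 libraries was used, and with 1 to 3 counts an exact 95% interval, which covers counting error only. Tables and figures were made with matplotlib 3.10.9, pandas 2.3.3, numpy 2.4.6 and scipy 1.17.1 under Python 3.11.15.

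The members and lists were chosen with earlier results of these data known. Named genes are the 10 most abundant mRNAs per stage, the 12 largest gains and losses of mean TPM among the called mRNAs, the 12 largest fitted rises and falls among mRNAs with libraries that do not overlap and an average log2 CPM of 4 or more, up to 4 called members per list with those called against the majority and the most abundant one not called, and the markers of cell types. The markers, beside those given, summed to 1775 and 2068 TPM in CM, against 53.3 and 58.5 TPM in ESC, for smooth muscle, to 157 and 91.8 TPM, against 49.6 and 53.6 TPM, for endothelium, to 203 and 56.8 TPM, against 24.0 and 25.5 TPM, for epicardium, to 545 and 841 TPM, against 0.0534 and 0 TPM, for visceral endoderm, to 25.9 and 43.4 TPM, against 95.0 and 92.7 TPM, for neural cells and to 0 and 1.02 TPM, against 0.193 and 0 TPM, for skeletal muscle. Coordinates are those of the GENCODE M21 annotation of GRCm38, and promoter windows are from RefSeq (GRCm38.p6). Fewer than 80% of the called genes had a window, so no comparison of promoter content between sets is given.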

Additional observations from a re-analysis of the deposited data

How the results depend on the processing

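Over the planned settings 3665 to 4999 mRNAs were called higher and 2575 to 3468 lower, and with the fold of mean TPM, an alternative chosen after seeing the data, 5467 were higher and 2188 lower. The share of the ESC pool in mRNAs called lower was 50.5%. It was 51.9% by DESeq2, 50.8% by voom, 52.0% with RLE scaling, 37.9% with library totals, 46.6% with nuclear protein-coding genes only, 47.0% with no filter, 50.3% with only the CM and ESC libraries, 37.7% with glmTreat against 2-fold, 29.1% with the fold of mean TPM, and 45.2% to 53.8% without single replicates. The share of the CM pool in mRNAs called higher was 25.6%, and 29.1% with library totals, 22.8% with glmTreat, 32.9% with the fold of mean TPM and 23.9% to 28.1% without single replicates. The pool that lay with other mRNAs was 33.1%, or 34.3% from counts. With the replicate block 4411 mRNAs were higher and 3332 lower (4406 and 3316 shared with the fit without it). Deviations of same-numbered replicates correlated by 0.03 between CM and ESC. This gives no sign of a pairing by replicate number but cannot exclude one.

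Library totals moved the median of all genes by 0.22 (log2). Of 45 list counts of at least 10 genes, 11 moved by over 1.5 times. Nuclear respiratory genes called lower were 21, and 11 with library totals, 12 with glmTreat and 2 with the fold of mean TPM. Secretory genes called higher were 14, and 8 with glmTreat. Zfp genes called higher were 71, and 43 with glmTreat and 113 with the fold of mean TPM. The majority turned for Notch, BAF, FGF, Zfp, glycolysis and immediate early genes in 1 to 3 settings each. The causes were not tested. Depth limits low mRNAs, of which 6665 were not tested.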

Other observations

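Of the Prl, Serpinb, Ccl and Tlr genes tested, most were called higher in CM. Of 25 Prl genes, which encode prolactin-like hormones, 8 were tested and called higher, 7 of them side by side on chromosome 13. They summed to 235 and 114 TPM in CM, against 0 and 0.152 TPM in ESC, and all 8 were called in each alternative but DESeq2, which called 2. At MES they summed to 0.129 TPM and at CP to 1.58 TPM. They thus passed the filter on low counts mainly through CM, and their direction follows from that. Of 15 Serpinb genes tested, which encode protease inhibitors, 14 were called higher and 1 lower, with sums of 543 and 332 TPM in CM, against 36.5 and 30.1 TPM in ESC. Of 10 Ccl chemokine genes tested 9 were called higher, and of 10 Tlr genes, which encode innate receptors, 8. Members low at every stage were not tested, so these shares are not those of the whole families.

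Zscan4 genes, known in mouse from the embryo at the stage of genome activation and from rare ESCs, were called lower for all 8 tested, with sums of 0.291 and 0.115 TPM in CM, against 21.6 and 21.9 TPM in ESC. Of 1138 Olfr genes, which encode odorant receptors, 18 passed the filter, and 13 of these were called lower and 2 higher. Low genes pass the filter through a stage where they are high, so the directions of the Zscan4 and Olfr genes tested partly follow from it. By chromosome, the median log2 fold change ran from -0.06 on chromosome 17 to 0.38 on chromosome 1, leaving out chromosome Y with 7 genes tested. The X chromosome, of which the J1 line has a single copy, stood at 0.38 with 563 mRNAs tested, and 37.3% of them were called higher and 21.7% lower. These groups were chosen after the values were seen, and members of each share sequence and hence reads.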
